A study of Homo sapiens with 4 samples.

Results

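Potassium channel genes were examined in NTERA2 cells whose libraries are labelled BEND3 sh60 or BEND3 LacZ. They were taken as all rows whose gene symbol starts with KCN, continues with 1 or more letters and ends in a number, which gave 95 of the 26364 genes in the files. NTERA2 is a human embryonal carcinoma line, and messenger RNA was sequenced from 2 libraries per group, sh60 replicates 1 and 2 and LacZ replicates 1 and 3. BEND3 encodes a chromatin-bound repressor with BEN domains. Here sh60 is read as a hairpin RNA against BEND3 and LacZ as its control, a reading of the names that the labels leave unstated, and all 4 libraries come from the same line and medium. The labels do not say whether the replicates were separate cultures, so the p-values reflect the spread among these libraries alone, and that spread may be technical. All levels are from bulk RNA, in which fewer cells of a type and less RNA per cell cannot be told apart.

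Potassium channels are membrane pores that let potassium ions leave the cell down their gradient, or enter it at very negative voltages, and they set the resting membrane potential and the rate at which a cell repolarizes. Voltage-gated channels are built from 4 alpha subunits and open on depolarization, and silent subunits join them without making a working channel alone. Inward rectifiers and K2P channels, which carry a pair of pore loops in each subunit, hold the resting potential. Channels of intermediate and small conductance and the BK channel open when calcium rises inside the cell, and ancillary subunits adjust the traffic and gating of the pores they bind. Cells that fire no action potentials, stem and tumour cells among them, also express such channels, which set their membrane potential and volume as they divide.

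The 95 genes comprised 79 that encode a pore-forming or silent alpha subunit and 16 that encode an ancillary or beta subunit. Their coding sequences were searched, in frame, for 5 codons that spell a threonine or serine, any residue, a glycine, a tyrosine, phenylalanine or leucine, and a glycine, which is the signature of the potassium selectivity filter. The pattern occurred in 79 of the 79 alpha subunit genes and in 0 of the 16 ancillary and beta subunit genes. Of the 15 K2P genes, 13 held it 2 times, once for each pore loop, and 2 held it once. The stretches below, from the GENCODE v29 transcripts on GRCh38, show the pattern in capitals for genes of each pore-forming class that differed between the groups. Read 5′ to 3′ on the coding strand, the capital bases lie at chr7:150951509-150951523 (minus strand) for KCNH2, chr2:42444114-42444128 (minus) for KCNG3, chr11:128911718-128911732 (plus) for KCNJ5, chr17:70175463-70175477 (plus) for KCNJ2, chr10:77110236-77110250 (minus) for KCNMA1 and chr19:43772057-43772071 (minus) for KCNN4. For KCNK6 (plus strand) the pattern of the first pore loop is split by the junction of exons 1 and 2, between chr19:38320266 and chr19:38326600, and that of the second lies at chr19:38326910-38326924.
KCNH2: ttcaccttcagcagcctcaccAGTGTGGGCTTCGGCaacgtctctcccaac
KCNG3: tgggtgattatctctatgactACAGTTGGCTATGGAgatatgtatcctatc
KCNJ5: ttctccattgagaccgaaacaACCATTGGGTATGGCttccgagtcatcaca
KCNJ2: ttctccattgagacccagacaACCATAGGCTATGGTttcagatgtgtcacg
KCNMA1: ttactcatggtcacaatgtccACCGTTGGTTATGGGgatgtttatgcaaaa
KCNN4: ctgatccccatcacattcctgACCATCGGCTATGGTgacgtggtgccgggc
KCNK6 first pore loop: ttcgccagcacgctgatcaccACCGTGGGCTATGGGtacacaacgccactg
KCNK6 second pore loop: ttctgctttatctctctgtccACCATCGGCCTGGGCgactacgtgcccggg
KCNH2 spells its filter with a serine and a phenylalanine, and the second pore loop of KCNK6 has a leucine codon in place of the tyrosine codon of the first. KCNH2 also matched once more upstream, at codons 599 to 603, so a match of the letters is not by itself a pore.

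The libraries held 33798665 and 44788461 counts in sh60 replicates 1 and 2, against 42538561 and 30338285 counts in LacZ replicates 1 and 3, and 1 count was worth 0.0221 to 0.0333 CPM (counts scaled to library size by TMM factors). BEND3 (chr6, the targeted gene) measured 55.7 and 52.0 CPM in the sh60 libraries, against 68.8 and 79.3 CPM in the LacZ libraries. Both sh60 libraries lay below both LacZ libraries (log2 fold change -0.46, SE 0.098, edgeR adjusted p = 0.00168), and without LacZ replicate 3 the difference did not pass (log2 fold change -0.36, adjusted p = 0.153). The labels call the line a lung carcinoma, yet 6 lung epithelium markers together measured 0.294 and 0.155 CPM in sh60, against 0.594 and 0.399 CPM in LacZ, with SFTPB and SCGB1A1 at 0 in every library. The 8 embryonal carcinoma markers together measured 4173 and 4006 CPM in sh60, against 4312 and 4523 CPM in LacZ.

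Of the 95 potassium channel genes, 91 had at least 1 count in some library and 65 passed the filter on low counts and were tested. The 4 genes at 0 throughout were KCNJ18, KCNJ16, KCNK16 and KCNA10. KCNJ18 shares 2006 of its 2198 exon bases with KCNJ12, so reads over the shared bases could not be assigned to either gene. The 0 for KCNJ18 therefore cannot be interpreted. KCNJ12, with 5230 exon bases, was counted over the rest, and its level is uncertain. The 30 genes that were not tested reached at most 13 counts in any library. A gene could enter the test on the libraries of 1 group alone: 5 of the tested genes, KCNIP2, KCNJ1, KCNJ3, KCNH5 and KCNH6, had 10 counts or more in both libraries of a single group, and 0 of these 5 passed the edgeR test, with KCNJ1 and KCNH6 under an unadjusted p of 0.05. KCNJ1 passed with upper-quartile scaling and with GC and length trends removed.

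Summed over the 95 genes, potassium channel mRNA measured 322.2 and 345.2 CPM in the sh60 libraries, against 373.4 and 364 CPM in the LacZ libraries. Few genes carried most of it. Levels between genes are compared here as CPM per kilobase of exon, averaged over the 4 libraries. On that scale 4 genes held 45.0% of the summed level and 8 genes held 65.9%, 18 genes reached 1 or more, and 20 genes held 86.9%. Among these 8 genes were KCNG1, the highest (19.8), and, in falling order, KCNMB4 (8.23), KCNK12 (7.83), KCNA5 (7.39), KCNK5 (6.0), KCNA6 (4.39) and KCNC4 (3.95). KCNG1 ran from 15.98 to 22.34 over the libraries and overlapped no other gene on this scale. From KCNMB4 to KCNC4, the libraries of each gene named overlapped those of the next. By class, voltage-gated alpha subunits held 32.3% of the summed level, silent modifiers 26.6%, K2P channels 19.0%, large-conductance and sodium-activated channels with their beta subunits 9.86%, inward rectifiers 6.35%, ancillary subunits 3.24% and small- and intermediate-conductance channels 2.71%.

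Potassium channel genes changed in both directions in sh60 cells. By edgeR's quasi-likelihood test, with p-values adjusted over all 16040 tested genes, 25 of the 65 tested genes differed at a threshold of 0.05. The 9 that rose were KCNE1, KCNK6, KCNJ2, KCNN4, KCNAB1, KCNMA1, KCNG3, KCNN2 and KCNJ8. Among the 16 that fell were KCNJ5, KCNK17, KCNB2, KCNK2, KCNH2, KCNE3, KCNK5, KCNK12, KCNAB2, KCNS3, KCNA5, KCNT2 and KCNG1. As shares of the tested genes these are 13.8% higher and 24.6% lower, beside 15.8% higher and 13.0% lower (28.8% in either direction) among all genes tested. With all 4 libraries the share that rose is thus near the background and the share that fell is above it, a difference that was not tested and that depended on the setting. Without sh60 replicate 1, 9 rose and 9 fell, and the 13.2% of tested members that fell lay below the 16.3% of all genes. Without LacZ replicate 3, 8 rose and 8 fell, with 11.6% lower among members beside 5.77% among all genes. Without LacZ replicate 1, 6 rose and 8 fell, with 12.1% lower among members beside 7.2% among all genes. Without sh60 replicate 2, 6 rose and 11 fell, with 16.9% lower among members beside 15.5% among all genes. DESeq2 called 6 higher and 8 lower. Its shares are over genes with at least 1 count, 8.79% of 91 members lower beside 7.91% of 20937 genes. That base is wider than the 65 and 16040 genes of the main fit, so these shares compare with each other but not with those of the main fit. Within DESeq2 the share of members that fell was near that of all genes. The fit with no count filter, given below, has the same base of 91 and 20937 genes. The alternatives that kept all 4 libraries and did not use DESeq2's own test gave these shares lower, members first. They were 24.6% and 12.9% with DESeq2 size factors, 26.2% and 16.1% with upper-quartile scaling and 24.6% and 11.7% with library totals. Limma-voom gave 24.6% and 13.2%, no count filter 17.6% and 10.5%, and a filter of 1 CPM in 2 libraries 34.8% and 14.3%. Removal of GC and length trends gave 26.2% and 19.7%. The median log2 fold change was -0.20 over the 65 tested potassium channel genes and -0.0042 over all genes tested. A change of 2-fold or more was called for 6 of the 65 genes, 3 higher and 3 lower, beside 5.83% of all genes tested.

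**Figure D1:**
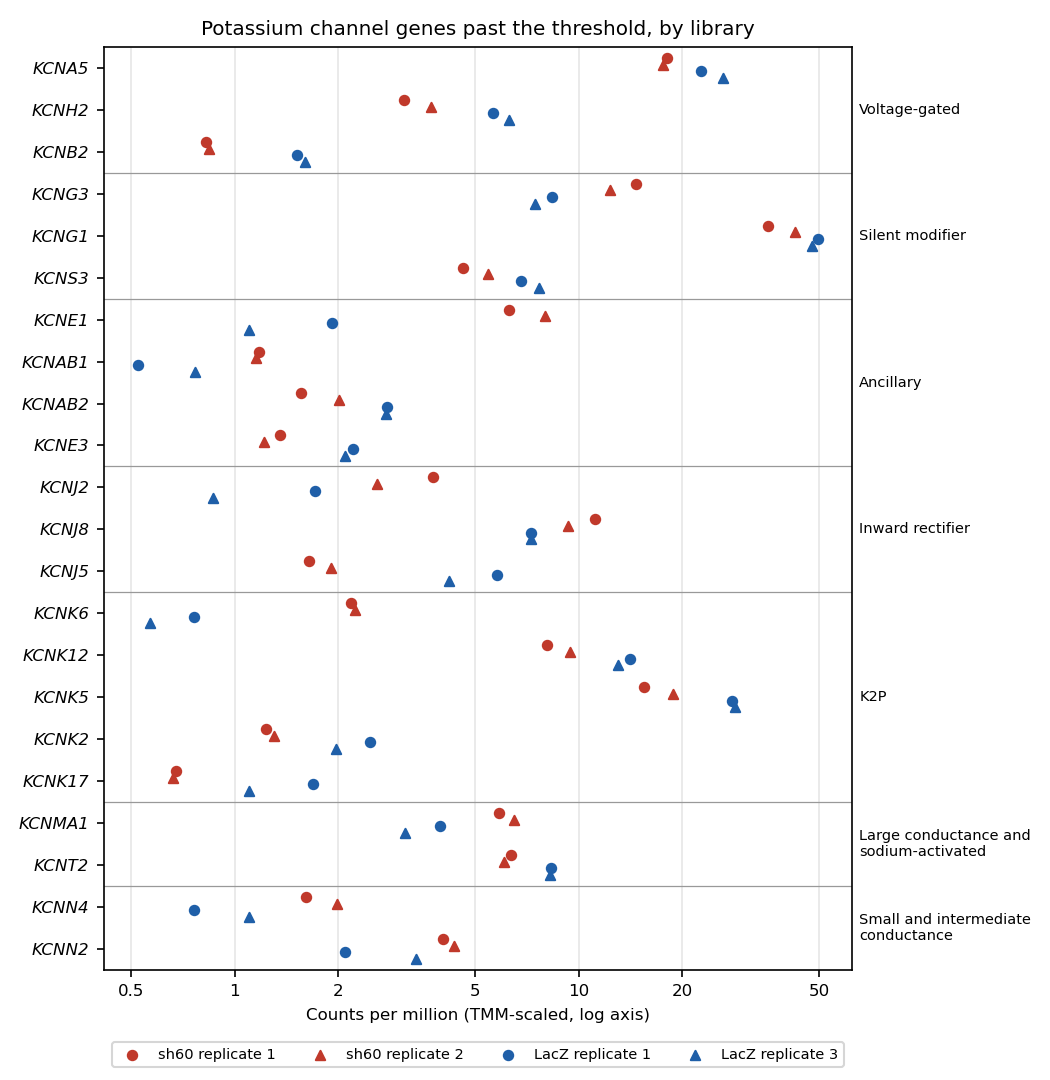
CPM (TMM-scaled, log axis) of 22 of the 25 potassium channel genes past the threshold, by channel class, with 1 point for each library (red for sh60, blue for LacZ; circles are replicate 1, triangles sh60 replicate 2 or LacZ replicate 3). Both sh60 libraries lie on the same side of both LacZ libraries for each of these 22 genes, from KCNE1 far to the right of its LacZ points to KCNG1, whose points lie close together.

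The sh60 and LacZ libraries did not overlap for 45 of the 65 tested potassium channel genes, beside 64.4% of all genes tested, and these 45 comprised the 25 called genes and 20 of the 40 others. Of the 40 that did not pass, 17 had a positive log2 fold change. The 95% interval of 20 of the 40 held a 2-fold change in some direction, so a change of that size cannot be set aside for them, and the interval of 5 stayed within a 1.5-fold change. KCNG1, the gene of highest level per kilobase, passed with a small change, 1.24-fold lower, and its call depended on single libraries.

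Voltage-gated alpha subunits fell or did not pass, and 0 rose. Of 30 genes in the class 24 were tested, 6 fell and 18 did not pass, and 18 of the 24 log2 fold changes were negative (median -0.33). The 6 that fell, which are all the calls of the class, made 25% of its tested genes. Among all genes tested 13.0% were lower and 28.8% were called in either direction, and the differences were not tested. KCNB2, KCNH2 and KCNA5 were among the 6 that fell. The 0 rises by edgeR compare with 15.8% among all genes tested; KCNA6 and KCNH8 were higher at an unadjusted p under 0.05, and DESeq2 and limma-voom also called 0. KCNH1 passed as higher without LacZ replicate 1, and KCNA6 under 4 of the 12 alternatives. The count of calls in this class was 2 without LacZ replicate 3.

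KCNB2 encodes Kv2.2, a delayed rectifier, and measured 0.822 and 0.840 CPM in sh60, against 1.52 and 1.60 CPM in LacZ. The groups did not overlap (log2 fold change -0.90, SE 0.273, edgeR adjusted p = 0.019). The call ended when any single library was left out (adjusted p = 0.0582 to 0.0806) and with DESeq2 (0.136).

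KCNH2 (chr7:150642044-150675402, hg19, minus strand) encodes hERG, the channel of the rapid delayed rectifier current of the heart. It measured 3.11 and 3.71 CPM in sh60, against 5.65 and 6.25 CPM in LacZ. Both sh60 libraries were lower than both LacZ libraries (log2 fold change -0.79, SE 0.171, edgeR adjusted p = 0.00186), and the call held under each of 12 alternatives (adjusted p at most 0.0122). KCNA5, which encodes Kv1.5, a channel of atrial and smooth muscle, measured 18.1 and 17.7 CPM in sh60, against 22.8 and 26.3 CPM in LacZ. The sh60 libraries lay close together and below both LacZ libraries (log2 fold change -0.45, SE 0.114, adjusted p = 0.00569), and the call ended without LacZ replicate 3 (adjusted p = 0.178).

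Of the KCNQ family, KCNQ1, KCNQ3 and KCNQ5 did not pass, with log2 fold changes of -0.33, -0.31 and -0.36. KCNQ1 encodes the alpha subunit that pairs with the KCNE1 product, and its level was 0.705 and 0.597 CPM in sh60, against 0.902 and 0.699 CPM in LacZ, with overlapping groups. The antisense transcript KCNQ1OT1, which lies within KCNQ1, did not pass either (log2 fold change 0.36, adjusted p = 0.376).

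KCNA6 and KCNC4 were also among the 8 genes of highest level per kilobase. KCNA6, which encodes Kv1.6, measured 27.2 and 30.6 CPM in sh60, against 25.6 and 21.5 CPM in LacZ. The sh60 libraries lay above both LacZ libraries, but the difference did not pass (log2 fold change 0.29, 95% interval 0.05 to 0.53, edgeR adjusted p = 0.0635). It passed with library totals in place of TMM (0.0414), with no count filter (0.0433), after removal of GC and length trends (0.0144) and without sh60 replicate 1 (0.0104). KCNC4, which encodes Kv3.4, measured 16.7 and 18.6 CPM in sh60, against 18.7 and 16.0 CPM in LacZ, and the groups overlapped. Its log2 fold change of 0.02 (95% interval -0.23 to 0.28) turned negative under upper-quartile scaling, without LacZ replicate 3 and without sh60 replicate 2.

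Of the 10 silent modifier genes, 6 were tested, with 1 higher, 2 lower and a median log2 fold change of -0.22. That is 50% called, beside 28.8% among all genes tested, a difference that was not tested. KCNG3 (chr2:42669157-42721237, hg19, minus strand) encodes Kv6.3, which forms channels with Kv2 subunits. It measured 14.7 and 12.3 CPM in sh60, against 8.38 and 7.49 CPM in LacZ. Both sh60 libraries were clearly above both LacZ libraries (log2 fold change 0.76, SE 0.138, edgeR adjusted p = 4.29e-04), in the direction opposite to KCNB2. KCNG1, which encodes Kv6.1 and had the highest level per kilobase of all 95 genes, measured 35.5 and 42.7 CPM in sh60, against 49.6 and 47.7 CPM in LacZ. The groups did not overlap, and sh60 replicate 1 was the lowest (log2 fold change -0.31, SE 0.106, adjusted p = 0.0328). Its call ended without LacZ replicate 1 (adjusted p = 0.279), LacZ replicate 3 (0.182) or sh60 replicate 1 (log2 fold change -0.19, adjusted p = 0.0862). KCNS3, which encodes Kv9.3, measured 4.61 and 5.46 CPM in sh60, against 6.81 and 7.65 CPM in LacZ. Its log2 fold change was -0.51, and the call ended without LacZ replicate 3 (adjusted p = 0.148), without sh60 replicate 1 (0.0955) and with DESeq2 (0.0657). The count of calls in this class was 1 without LacZ replicate 3 or without sh60 replicate 1.

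Ancillary subunits moved in both directions, with 2 of 8 tested genes higher and 2 lower (12 in the class, median log2 fold change 0.06). In all 50% were called, beside 28.8% among all genes tested, a difference that was not tested. KCNE1 (chr21:35818986-35884573, hg19, minus strand) encodes minK, which slows the opening of the KCNQ1 channel. It measured 6.28 and 8.0 CPM in sh60, against 1.92 and 1.10 CPM in LacZ. Its sh60 libraries lay far above its LacZ libraries, a 4.60-fold higher level (log2 fold change 2.20, SE 0.222, edgeR adjusted p = 9.3e-07), the largest change among the tested potassium channel genes in size. The call held under each of the 12 alternatives, with log2 fold changes of 1.90 to 2.71. KCNE3, another small partner of KCNQ1, changed the other way, at 1.35 and 1.22 CPM in sh60, against 2.21 and 2.10 CPM in LacZ. The groups did not overlap (log2 fold change -0.75, SE 0.236, adjusted p = 0.0224), and the call ended without LacZ replicate 1 (adjusted p = 0.107), without sh60 replicate 2 (0.116) and with DESeq2 (0.143).

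The beta subunits of Kv1 channels also split. KCNAB1 measured 1.18 and 1.15 CPM in sh60, against 0.522 and 0.765 CPM in LacZ. It was higher in both sh60 libraries (log2 fold change 0.88, SE 0.321, edgeR adjusted p = 0.0472), close to the threshold. Its call ended without LacZ replicate 1 (adjusted p = 0.352), sh60 replicate 1 (0.119) or sh60 replicate 2 (0.139), with DESeq2 (0.246) and with limma-voom (0.0514). KCNAB2 measured 1.56 and 2.01 CPM in sh60, against 2.78 and 2.76 CPM in LacZ. It was lower in both sh60 libraries (log2 fold change -0.62, SE 0.216, adjusted p = 0.0385), and the call ended without LacZ replicate 1 (0.115), LacZ replicate 3 (0.0945) or sh60 replicate 1 (0.2) and with DESeq2 (0.173). KCNAB3 did not pass (log2 fold change -0.16), nor did the 3 tested KCNIP genes, whose products bind Kv4 channels.

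Among the inward rectifiers, 10 of 16 genes were tested, 2 rose and 1 fell (median log2 fold change 0.08). The 30% called is near the 28.8% called among all genes tested. KCNJ2 (chr17:68165676-68176183, hg19, plus strand) encodes Kir2.1, a strong inward rectifier that holds the resting potential. It measured 3.76 and 2.59 CPM in sh60, against 1.71 and 0.865 CPM in LacZ. The groups did not overlap, although the libraries within each group also differed (2.35-fold, log2 fold change 1.23, SE 0.275, edgeR adjusted p = 0.00244). The call held without each library in turn, and the log2 fold change was 1.86 without LacZ replicate 1. KCNJ8, which encodes Kir6.1, the pore of a channel closed by ATP, measured 11.2 and 9.32 CPM in sh60, against 7.29 and 7.29 CPM in LacZ. The LacZ libraries lay together below both sh60 libraries (log2 fold change 0.49, SE 0.142, adjusted p = 0.0148). That call ended without LacZ replicate 1 (adjusted p = 0.0619), LacZ replicate 3 (0.0673) or sh60 replicate 1 (0.0926).

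KCNJ5 (chr11:128761313-128787951, hg19, plus strand) encodes Kir3.4, a channel opened by G proteins. It measured 1.64 and 1.90 CPM in sh60, against 5.79 and 4.19 CPM in LacZ. Both sh60 libraries lay far below both LacZ libraries, a 2.82-fold lower level and the largest fall among the potassium channel genes that passed (log2 fold change -1.50, SE 0.209, edgeR adjusted p = 3.22e-05). The call held under each of the 12 alternatives, with log2 fold changes of -1.70 to -1.23. KCNJ1, which encodes Kir1.1 of the kidney, is its neighbour on chromosome 11, 24.0 kb away on the other strand. KCNJ1 had 5 and 7 counts in sh60, against 13 and 16 counts in LacZ, and did not pass (log2 fold change -1.41, 95% interval -2.56 to -0.26, adjusted p = 0.0626). KCNJ3, which encodes Kir3.1, a partner of Kir3.4, had 14 and 16 counts in sh60, against 15 and 9 counts in LacZ, with overlapping groups.

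Of 15 K2P channel genes 9 were tested, 1 rose and 4 fell, with a median log2 fold change of -0.46. As shares these are 11.1% higher and 44.4% lower, beside 15.8% and 13.0% among all genes tested. The differences from the background were not tested. Their summed level per kilobase was 15.64 and 17.76 in sh60, against 22.99 and 22.62 in LacZ, and the sh60 libraries lay below both LacZ libraries. The same held for the summed levels of voltage-gated subunits, silent modifiers and large-conductance and sodium-activated channels. Those of ancillary subunits and small- and intermediate-conductance channels lay above both LacZ libraries, and those of inward rectifiers overlapped. Most of the K2P level came from KCNK12 and KCNK5. The count of calls in this class was 3 without LacZ replicate 1, without sh60 replicate 2 and with DESeq2.

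KCNK5 (chr6:39156747-39197251, hg19, minus strand) encodes TASK-2, an alkali-activated channel. It measured 15.5 and 18.8 CPM in sh60, against 27.9 and 28.5 CPM in LacZ. The LacZ libraries agreed closely and lay well above both sh60 libraries (log2 fold change -0.72, SE 0.116, edgeR adjusted p = 1.47e-04). KCNK12 (chr2:47747915-47797470, hg19, minus strand), which encodes THIK-2, measured 8.08 and 9.41 CPM in sh60, against 14.1 and 13.0 CPM in LacZ. It was lower in both sh60 libraries (log2 fold change -0.63, SE 0.132, adjusted p = 0.00151). Both calls held under each of the 12 alternatives.

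KCNK17 (chr6:39266777-39282237, hg19, minus strand), which encodes TASK-4, lies 69.5 kb from KCNK5 and measured 0.675 and 0.663 CPM in sh60, against 1.69 and 1.10 CPM in LacZ. The sh60 libraries were alike and below both LacZ libraries, which differed from each other (log2 fold change -1.08, SE 0.311, edgeR adjusted p = 0.0138). Leaving out LacZ replicate 1 gave a log2 fold change of -0.71 (adjusted p = 0.275), and the call also ended without sh60 replicate 2 (0.0748) and with DESeq2 (0.109). KCNK2, which encodes the stretch-sensitive TREK-1, measured 1.23 and 1.30 CPM in sh60, against 2.47 and 1.96 CPM in LacZ. It was lower in both sh60 libraries (log2 fold change -0.81, SE 0.24, adjusted p = 0.0161), and the call ended without LacZ replicate 1 (0.184), sh60 replicate 1 (0.0568) or sh60 replicate 2 (0.0573) and with DESeq2 (0.11).

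KCNK6 (chr19:38810484-38819649, hg19, plus strand), which encodes TWIK-2, was the K2P gene that rose. It measured 2.17 and 2.23 CPM in sh60, against 0.760 and 0.566 CPM in LacZ. The sh60 libraries agreed closely and lay far above both LacZ libraries, a 3.25-fold higher level (log2 fold change 1.70, SE 0.272, edgeR adjusted p = 1.29e-04), and the call held under each of the 12 alternatives. KCNK1, which encodes its relative TWIK-1, measured 7.72 and 7.89 CPM in sh60, against 6.53 and 7.59 CPM in LacZ. The groups did not overlap but the difference did not pass (log2 fold change 0.15, 95% interval -0.15 to 0.46, adjusted p = 0.478).

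Of the 8 genes for large-conductance and sodium-activated channels and their beta subunits, 4 were tested, with 1 higher and 1 lower. With so few genes, the 50% called was not tested against the 28.8% among all genes tested. KCNMA1 (chr10:78629359-79397577, hg19, minus strand) encodes the alpha subunit of the large-conductance BK channel. It measured 5.87 and 6.47 CPM in sh60, against 3.97 and 3.13 CPM in LacZ. Both sh60 libraries were above both LacZ libraries (log2 fold change 0.79, SE 0.172, edgeR adjusted p = 0.00202), and the call held under each of the 12 alternatives. Of the 4 beta subunit genes 2 were tested, and neither passed. KCNMB4, a neuronal form, measured 37.4 and 37.3 CPM in sh60, against 42.1 and 38.8 CPM in LacZ. Its log2 fold change was -0.12 (95% interval -0.32 to 0.09, adjusted p = 0.420). KCNMB1, the smooth muscle form, measured 0.793 and 0.972 CPM in sh60, against 0.665 and 0.466 CPM in LacZ (log2 fold change 0.62). KCNT2, which encodes a sodium-activated channel, measured 6.34 and 6.05 CPM in sh60, against 8.33 and 8.25 CPM in LacZ. Its log2 fold change was -0.42, and the call ended without LacZ replicate 1 (adjusted p = 0.147), LacZ replicate 3 (0.129) or sh60 replicate 2 (0.0914) and with DESeq2 (0.105).

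All 4 small- and intermediate-conductance genes were tested, and 2 rose. This 50% higher stands beside 15.8% higher among all genes tested, a difference that was not tested. KCNN4 (chr19:44270685-44285409, hg19, minus strand) encodes the intermediate-conductance channel KCa3.1 and measured 1.62 and 1.99 CPM in sh60, against 0.760 and 1.10 CPM in LacZ. Both sh60 libraries were higher (log2 fold change 0.99, SE 0.278, edgeR adjusted p = 0.0117), and the call ended without LacZ replicate 1 (adjusted p = 0.134), without sh60 replicate 2 (0.112) and with DESeq2 (0.0909). KCNN2, which encodes the small-conductance channel SK2, measured 4.02 and 4.33 CPM in sh60, against 2.09 and 3.36 CPM in LacZ. The LacZ libraries differed from each other (log2 fold change 0.65, SE 0.213, adjusted p = 0.0287), and the size rested on which was kept. The log2 fold change was 0.32 without LacZ replicate 1 (adjusted p = 0.402) and 1.00 without LacZ replicate 3, and the call also ended without sh60 replicate 2 (0.117) and with DESeq2 (0.111). KCNN1 and KCNN3, the other SK genes, had log2 fold changes of -0.35 and -0.20 and did not pass. The count of calls in this class was 0 without LacZ replicate 1, without sh60 replicate 2 and with DESeq2.

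**Figure D2:**
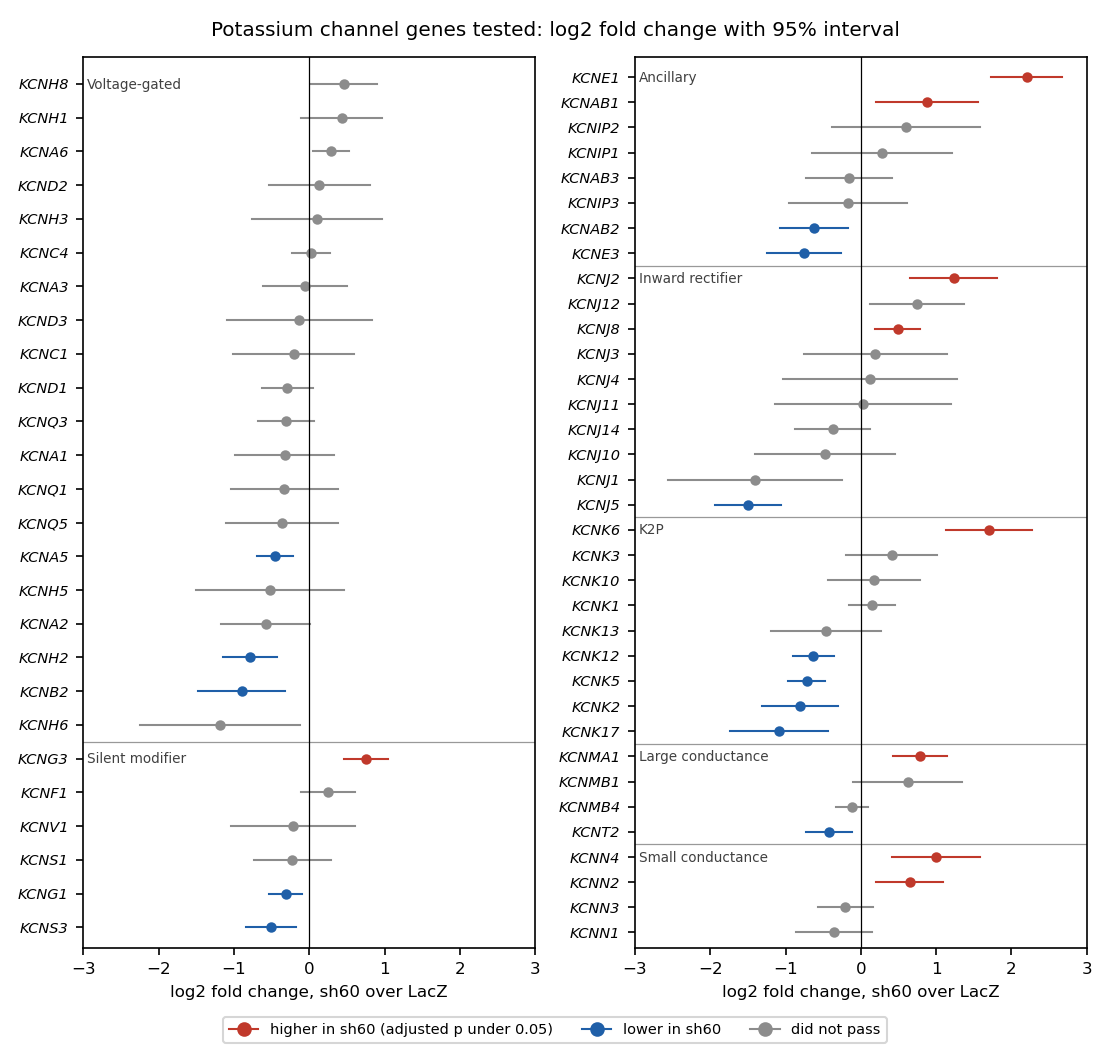
Log2 fold change of sh60 over LacZ (points) with its 95% interval (lines) for 61 of the 65 tested potassium channel genes, grouped by class and ordered by value within a class (red higher in sh60, blue lower in sh60, grey did not pass). The voltage-gated genes past the threshold lie left of 0, while each other class except the small-conductance channels has points past the threshold on both sides.

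**Figure D3:**
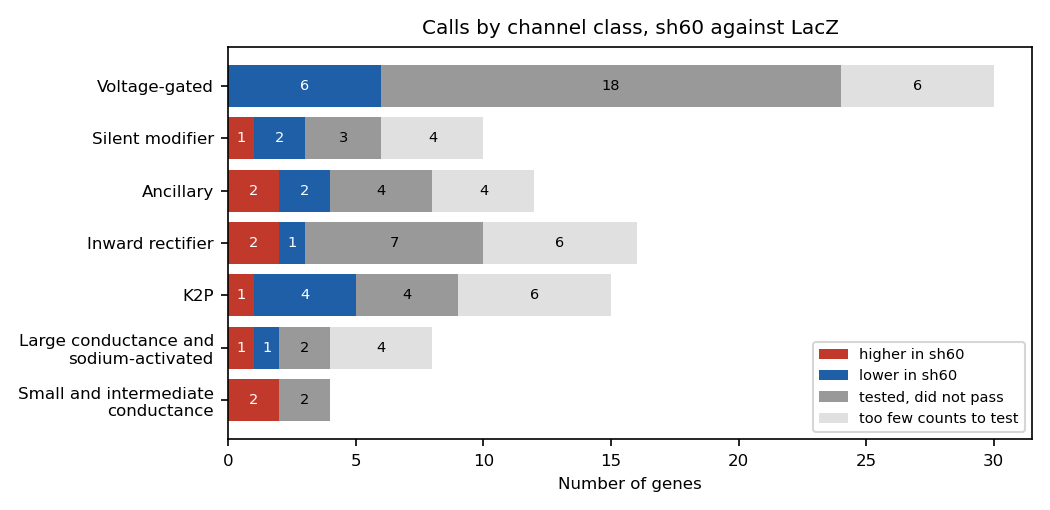
Number of potassium channel genes in each class (bars start at 0) that were higher in sh60, lower in sh60, tested without passing, or too low in counts to be tested. The voltage-gated class holds 6 lower and 0 higher genes, the K2P class 4 lower and 1 higher, and the small- and intermediate-conductance class 2 higher and 0 lower. Among all genes tested, 15.8% were higher and 13.0% lower.

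Of the 25 called genes, 10 kept their call under each of the 12 alternatives run, among them KCNE1, KCNK6, KCNJ2, KCNMA1, KCNG3, KCNJ5, KCNH2, KCNK5 and KCNK12. All 25 kept their direction. The 15 others lost the call when at least 1 library was left out: 12 without LacZ replicate 1, 9 without LacZ replicate 3, 9 without sh60 replicate 1 and 8 without sh60 replicate 2. These fits keep a single library in one group, whose spread is assumed to be that of the other group. LacZ replicate 1 lay above LacZ replicate 3 in 6 of the 9 genes that rose, and below it in 7 of the 16 that fell.

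**Figure D4:**
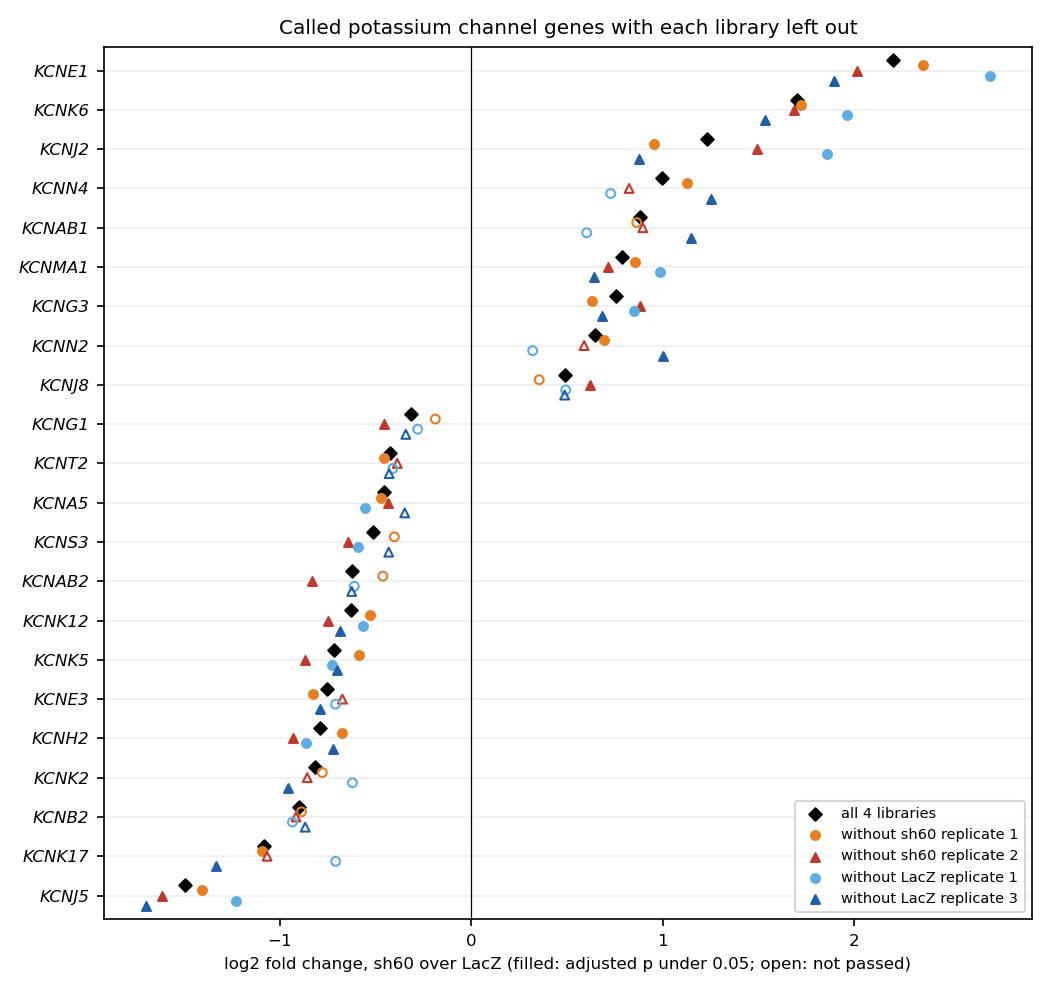
Log2 fold change of sh60 over LacZ for 22 of the 25 called potassium channel genes with all 4 libraries (black) and with each library left out in turn (red and orange for sh60, blue for LacZ); filled points pass an adjusted p of 0.05 and open points do not. Points stay on their side of 0 for these 22 genes, and 9 of them, from KCNE1 to KCNJ5, have filled points throughout.

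Promoters were taken as 250 bases before to 50 bases after the first start listed for each gene in RefSeq (GRCh38.p14). They matched 71 of the 95 genes and 19 of the 25 called ones. The first start listed need not be the one in use in these cells, and at least 1 window lay downstream of the pore codons of its gene. The dinucleotide CG occurred a median of 19 times per promoter in these 71, beside 14 in all promoters of the table and 26 in those of tested genes. The median was 16 in the 9 promoters of genes that rose, 21 in the 10 of genes that fell, 23 in the 29 of genes that did not pass and 7 in the 23 of genes that were not tested. TATAAA, on either strand, occurred in 6 of the 71 (8.45%), beside 12.0% of all promoters and 6.0% of those of tested genes. The promoters of 5 of the genes that changed 2-fold or more are shown with each CG in capitals, to set the spread in CG content beside the direction of change. They lie at chr21:34512161-34512460 (minus strand) for KCNE1, chr19:38319595-38319894 (plus) for KCNK6, chr17:70169282-70169581 (plus) for KCNJ2, chr11:128891106-128891405 (plus) for KCNJ5 and chr6:39314370-39314669 (minus) for KCNK17.
KCNE1: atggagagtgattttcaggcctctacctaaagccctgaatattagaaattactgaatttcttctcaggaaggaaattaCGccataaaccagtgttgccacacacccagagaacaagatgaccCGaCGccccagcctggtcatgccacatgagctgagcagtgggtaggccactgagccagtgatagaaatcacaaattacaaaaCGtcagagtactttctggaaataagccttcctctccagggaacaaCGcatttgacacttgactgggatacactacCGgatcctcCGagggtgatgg
KCNK6: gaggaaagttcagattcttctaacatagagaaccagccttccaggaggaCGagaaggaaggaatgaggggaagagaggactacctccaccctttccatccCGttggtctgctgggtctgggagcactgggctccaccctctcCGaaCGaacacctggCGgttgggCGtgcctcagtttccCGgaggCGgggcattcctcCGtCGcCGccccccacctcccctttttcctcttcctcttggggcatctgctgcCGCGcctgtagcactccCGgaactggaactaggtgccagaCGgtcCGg
KCNJ2: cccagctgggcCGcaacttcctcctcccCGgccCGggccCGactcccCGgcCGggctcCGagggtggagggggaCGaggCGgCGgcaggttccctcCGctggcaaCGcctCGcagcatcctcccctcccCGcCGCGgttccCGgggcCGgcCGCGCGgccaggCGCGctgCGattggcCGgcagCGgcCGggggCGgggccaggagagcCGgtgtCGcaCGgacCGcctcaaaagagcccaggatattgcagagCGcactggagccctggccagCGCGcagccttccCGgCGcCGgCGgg
KCNJ5: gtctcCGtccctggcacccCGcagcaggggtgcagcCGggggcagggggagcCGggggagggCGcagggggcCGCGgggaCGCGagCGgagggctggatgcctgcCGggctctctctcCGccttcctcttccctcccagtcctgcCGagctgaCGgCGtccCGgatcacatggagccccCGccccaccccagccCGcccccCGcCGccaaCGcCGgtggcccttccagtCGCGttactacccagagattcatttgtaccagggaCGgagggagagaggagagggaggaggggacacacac
KCNK17: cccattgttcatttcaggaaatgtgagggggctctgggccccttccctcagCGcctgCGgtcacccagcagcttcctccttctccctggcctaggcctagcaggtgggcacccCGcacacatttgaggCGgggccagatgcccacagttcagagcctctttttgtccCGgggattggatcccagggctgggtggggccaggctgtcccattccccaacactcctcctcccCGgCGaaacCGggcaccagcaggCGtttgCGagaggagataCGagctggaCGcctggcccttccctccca
KCNE1, KCNK6 and KCNJ2, which rose, held 7, 16 and 39 CG, and KCNJ5 and KCNK17, which fell, held 25 and 12. The ranges of the genes that rose and fell overlap in these 5, and TATAAA occurred in 0 of the 5.

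Several potassium channel genes lie next to each other in hg19. KCNK5 and KCNK17, 69.5 kb apart on chromosome 6, were both lower. KCNE2 lies 75.5 kb from KCNE1 and had 4 and 0 counts in sh60, against 4 and 1 counts in LacZ, too few to be tested. KCNJ16, 33.9 kb from KCNJ2, had 0 counts in every library. On chromosome 12 KCNA6, KCNA1 and KCNA5 follow each other with gaps of 58.8 and 125.7 kb, and their log2 fold changes were 0.29, -0.32 and -0.45, of which the last passed.

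The genes that work with these channels were read from lists outside the KCN symbols. Of 15 tested partner subunits 1 rose and 4 fell, 33.3% in all beside the background of 28.8% (median log2 fold change -0.11). LRRC55, a gamma subunit of the BK channel, measured 6.90 and 6.23 CPM in sh60, against 12.7 and 13.9 CPM in LacZ (log2 fold change -1.02, SE 0.135, edgeR adjusted p = 1.86e-05), so it was lower where KCNMA1 was higher. LGI1, a secreted partner of Kv1 channels, measured 2.79 and 3.25 CPM in sh60, against 5.51 and 6.92 CPM in LacZ (log2 fold change -1.02, adjusted p = 3.03e-04). AKAP9, which anchors kinases to the KCNQ1 channel, was higher (log2 fold change 0.40, adjusted p = 0.0102), and its call ended without LacZ replicate 1 (0.103) or LacZ replicate 3 (0.0914). CALM3, a calmodulin gene, was lower (log2 fold change -0.23, adjusted p = 0.0346). The count of calls was 3 without LacZ replicate 1 or LacZ replicate 3.

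Of 10 tested genes of the sodium-potassium pump, which builds the gradient these channels use, 1 rose and 4 fell, 50% in all beside the background of 28.8% (median log2 fold change -0.23). ATP1B1, a beta subunit, rose (log2 fold change 0.48, edgeR adjusted p = 0.00247), with a call that ended without LacZ replicate 3 (0.212). FXYD5 and ATP1A4 fell, with log2 fold changes of -0.39 and -0.76. The call of FXYD5 ended without LacZ replicate 1 (adjusted p = 0.147) or 3 (0.072), and that of ATP1A4 ended without sh60 replicate 2 (0.115). The count of calls was 3 without LacZ replicate 1 and 2 without LacZ replicate 3.

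Among other cation channels, the shares called are to be read beside the 28.8% called among all genes tested. They were 50% of the sodium channel genes, 47.1% of the calcium channel genes and 33.3% of the HCN and CNG genes, the last near the background, and these differences from it were not tested. Of 12 tested voltage-gated sodium channel genes 4 rose and 2 fell (median log2 fold change 0.07). SCN2A measured 12.2 and 10.1 CPM in sh60, against 4.27 and 3.13 CPM in LacZ (log2 fold change 1.57, edgeR adjusted p = 1.91e-06). SCN9A and SCN3B rose by log2 fold changes of 1.11 and 0.78. The count of sodium channel calls was 3 without LacZ replicate 3. Of 17 tested calcium channel genes 1 rose and 7 fell (median log2 fold change -0.41). CACNA1G, a T-type channel, measured 4.38 and 4.29 CPM in sh60, against 10.7 and 9.95 CPM in LacZ (log2 fold change -1.26, adjusted p = 4.65e-06). CACNA2D2, CACNA1E and CACNA1H fell with log2 fold changes of -0.94, -0.81 and -0.48, and the call of CACNA1H ended without LacZ replicate 3 (adjusted p = 0.0851). The count of calcium channel calls was 4 without LacZ replicate 3 and 5 with DESeq2. Of 6 tested HCN and CNG channel genes 1 rose, and HCN4 fell (log2 fold change -0.29). The call of HCN4 ended without LacZ replicate 1 (adjusted p = 0.468), LacZ replicate 3 (0.137) or sh60 replicate 1 (0.078), with library totals (0.0659) and with DESeq2 (0.0651).

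Markers of several cell types are to be read beside the 28.8% called among all genes tested, 15.8% higher and 13.0% lower. Of the tested markers, 66.7% were called for neurons, 100% for smooth muscle, 57.1% for fibroblasts and 40% for heart and skeletal muscle. The share was 66.7% for blood cells and 62.5% for embryonal carcinoma. These lists are short, and several held calls in both directions. Neither their differences from the background nor the part of the markers in the potassium channel results was tested. Of 9 tested neuron markers 5 rose and 1 fell, and their summed level was 402.7 and 422.9 CPM in sh60, against 321.8 and 301.9 CPM in LacZ. SNAP25 had a log2 fold change of 2.35 and RBFOX3 one of -1.09, so the list did not move as 1. Of 5 smooth muscle markers 4 rose and 1 fell, with summed levels of 610.1 and 721.6 CPM in sh60, against 300.9 and 213.9 CPM in LacZ; TAGLN had a log2 fold change of 1.49 and DES one of -1.90. Of 7 fibroblast markers 4 rose and 0 fell by edgeR, with summed levels of 735.6 and 885.2 CPM in sh60, against 288.2 and 194.5 CPM in LacZ. COL1A1 had a log2 fold change of 2.45, and 1 marker, PDGFRB, was lower at an unadjusted p under 0.05. Of 5 tested heart and skeletal muscle markers, of 8 listed, MYL7 and RYR2 rose and 0 fell by edgeR (ACTN2 was lower at an unadjusted p under 0.05), with summed levels of 71.3 and 73.8 CPM in sh60, against 64.7 and 53.7 CPM in LacZ. Of 3 tested blood cell markers LYZ rose and CD74 fell, with summed levels of 2.82 and 2.78 CPM in sh60, against 2.64 and 2.26 CPM in LacZ, and with PTPRC and HBB at 0 in every library. Of the 8 embryonal carcinoma markers SOX2 rose and 4 fell, DNMT3B by 0.72 on the log2 scale. NAPSA was the 1 tested lung marker and did not pass.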

How the data were processed

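The authors deposited 1 table per library with counts of reads per gene, whole and not normalized, per the file headers. Reads over exons were counted by symbol with strand setting 2, the reverse strand, and without an option for reads that map to several places or genes, per the file headers. STAR 2.7.6a, Subread 2.0.0 (featureCounts) and hg19 (GRCh37) are named in the submitters' processing notes. Stranded, single-end messenger RNA libraries were pooled for sequencing, per the labels' protocols.

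All 26364 genes were fitted together in edgeR 4.0.16 (R 4.3.3) with TMM scaling, filterByExpr (minimum count 10), the group as the only term and the two-sided quasi-likelihood test. The Benjamini-Hochberg adjustment ran over the 16040 genes tested, and the threshold was 0.05. The fit had 2 residual and 15.9 prior degrees of freedom and a common biological coefficient of variation of 7.33%. Intervals are at 95%, and each SE belongs to the log2 fold change it follows. Each library was counted as its own sample. The libraries within a group differed beyond sampling noise (chi-square over its degrees of freedom 17.1 for sh60 and 6.28 for LacZ). That spread may be technical and does not show that the libraries came from separate cultures. The script was tested on simulated data.

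Levels between genes are CPM divided by exon length in kilobases as the files give it. Gene coordinates are hg19, 1-based, as the files give them. Promoter and transcript sequences and their coordinates are GRCh38, and no coordinate was converted. Classes follow the symbols, from KCNA to KCNV. The members, classes and lists were chosen with earlier results of these data known. Named genes were BEND3, up to 10 rises and 10 falls largest in log2 fold change among those that passed, with groups that did not overlap and a higher group mean of at least 1 CPM, the 8 tested genes of highest level per kilobase, the highest and most significant gene of each class, and up to 4 members of each list. Other genes are named to account for a count or as a relative or neighbour of a named gene and were picked with their values known. Some genes that the rule takes, in the text and the figures, are not reported here. The alternatives were library totals, upper-quartile scaling or the size factors of DESeq2 in place of TMM, limma-voom (limma 3.58.1), DESeq2 1.42.0, no count filter, 1 CPM in 2 libraries, each library left out in turn, and removal of trends with GC content and exon length, which was chosen after seeing the data and had a GC value for 94.2% of tested genes.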

Additional observations from a re-analysis of the deposited data

How the results depend on the processing

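Of 16 potassium channel genes called lower by edgeR, DESeq2 called 8, and leaving out 1 library gave 8 to 11. With a library left out, the genes called higher were not all among the 9 called with all libraries. KCNH1 was added without LacZ replicate 1, and KCNA6 was among those added without sh60 replicate 1. Over all genes the number called higher was 1331 to 2789 and the number called lower 956 to 2697 with a library left out, and 3160 were lower once GC and length trends were removed. By class, leaving out 1 library gave 2 to 5 calls for voltage-gated subunits (6 with all libraries), 1 to 3 for silent modifiers (3), 1 to 3 for ancillary subunits (4), 2 to 3 for inward rectifiers (3), 3 to 5 for K2P channels (5), 1 to 2 for large-conductance and sodium-activated channels (2) and 0 to 2 for small- and intermediate-conductance channels (2). DESeq2 gave 1 call for ancillary subunits, 3 for K2P channels, 1 for large-conductance and sodium-activated channels and 0 for small- and intermediate-conductance channels, where edgeR gave 2. Inward rectifiers had 5 calls once GC and length trends were removed.

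In the related lists, leaving out 1 library gave 4 to 7 calls for calcium channels (8 with all libraries), 3 to 6 for sodium channels (6), 3 to 5 for partner subunits (5), 2 to 4 for the sodium-potassium pump (5) and 0 to 1 for HCN and CNG channels (2). DESeq2 gave 5 calls for calcium channels and 0 for HCN and CNG channels, and library totals gave 1 for the HCN and CNG channels. The log2 fold change of KCNC4 turned to -0.0076 under upper-quartile scaling, and with a library left out it ran from -0.0821 without LacZ replicate 3, over -0.06 without sh60 replicate 2, to 0.1452 without LacZ replicate 1, all within its interval. Beyond the smaller number of samples when a library is left out, the cause of these shifts was not tested. No alternative moved the median log2 fold change of all genes beyond -0.0338 to 0.0227.

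No paired analysis was possible because the groups share a single replicate number, 1, and the labels tie it to no shared culture or day. Depth limits the 30 genes that were not tested, which had at most 13 counts in any library.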
